A study of Mus musculus with 12 samples.

Results

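The genes described here encode proteins that bring myoblasts together and merge their membranes: Mymk, Mymx, Adam12, Cdh15, Cdh2, Cdon, Myof, Jam3 and Bai3. They were found by symbol in the deposited gene tables of a mouse C2C12 experiment, from 10 symbols of which 8 matched a gene. Gm7325 is the older symbol of Mymx, and Bai3, a receptor linked to Rac signalling, was listed in none of the 12 tables under that symbol or as Adgrb3. The 8 measured genes stand among 16288 genes listed in at least 1 table.

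Skeletal muscle fibres form when mononucleated myoblasts leave the cell cycle, align, adhere and fuse. Adhesion proteins such as cadherins and immunoglobulin-type receptors hold the cells together, actin remodelling pushes their membranes into contact, and a pair of muscle membrane proteins, myomaker (Mymk) and the micropeptide myomixer (Mymx, also called myomerger or minion), carries out the merger itself. Myomaker acts in the early mixing of the lipid layers and myomixer in the opening of the fusion pore.

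C2C12 is an immortalized mouse myoblast line that proliferates in serum-rich growth medium and forms multinucleated myotubes in low-serum medium. RNA was sequenced from 6 groups of 2 libraries, A and B, described in the labels as biological duplicates of 1 cell line. Proliferating cells (GM) received the vehicle DMSO or 50 uM PFI-3 for 12 h before harvest, in medium with fetal bovine serum. The other cells received DMSO or 50 uM PFI-3 for 12 h, were moved at high confluence to medium with horse serum and insulin, and were harvested 24 h or 48 h later (DM 24h and DM 48h), with the agent renewed every 24 h. PFI-3 is a small-molecule ligand for the acetyl-lysine-reading bromodomains of BRM, BRG1 and PB1, proteins of SWI/SNF chromatin remodelling complexes, and the comparisons ask how these genes respond to it at each stage.

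Expected counts, the quantifier's estimates of reads per gene, summed to between 12576374 and 13658352 per library. All counts of the 8 genes were whole numbers. The duplicates lay farther apart in proliferating cells: the SD over 10656 genes of the log2 ratio of library A to library B was 0.367 in GM DMSO and 0.333 in GM PFI-3, against 0.144 to 0.168 in the 4 differentiating groups. All 5 myoblast markers (Myod1, Myf5, Des, Chrna1 and Cdh15 itself) passed 3 counts in both libraries of every group. Lists of markers for other cells were low throughout: the summed FPKM was at most 0.3 for 4 endothelial genes, 0.36 for 4 adipocyte genes, 7.99 for 4 macrophage genes and 16.4 for 4 fibroblast genes. The 4 osteoblast genes summed to between 9.59 and 24.9 FPKM, with Ibsp at 0 in every group.

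The small size of the Mymx product is visible in its coding sequence, which lies on the minus strand of mouse chromosome 17 within the gene (GRCm38, 45600971 to 45602102). The frame shown has 84 codons before the stop codon and 255 bases in all, and 3 of 4 annotated GENCODE M21 coding transcripts carry it. It is shown because Mymx had the largest treatment difference of the 8 genes at 48 h, and capitals mark its start and stop codons.
Mymx chr17:45601417-45601671 (minus strand): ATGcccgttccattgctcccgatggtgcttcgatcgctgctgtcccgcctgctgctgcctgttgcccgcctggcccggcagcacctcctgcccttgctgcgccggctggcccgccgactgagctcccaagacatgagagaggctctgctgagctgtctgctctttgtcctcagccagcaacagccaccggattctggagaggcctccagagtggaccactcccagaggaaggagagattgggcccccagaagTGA

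Among the 8 genes, RefSeq promoter windows (GRCm38.p6, 250 bases before to 50 bases after the start) matched Cdh15, Cdon and Myof. Cdh15, which was lower with PFI-3, and Myof, which was higher with PFI-3 at 48 h, are shown. The Cdon window starts at 35451826, far past the RefSeq start of that gene at 35421528, and is not shown. The Cdh15 window is set on the RefSeq start at 122848374 and lies inside the GENCODE span, which begins at 122847966. Capitals mark the E-box CANNTG, the core sequence that basic helix-loop-helix factors such as MyoD bind.
Cdh15 chr8:122848124-122848423 (plus strand): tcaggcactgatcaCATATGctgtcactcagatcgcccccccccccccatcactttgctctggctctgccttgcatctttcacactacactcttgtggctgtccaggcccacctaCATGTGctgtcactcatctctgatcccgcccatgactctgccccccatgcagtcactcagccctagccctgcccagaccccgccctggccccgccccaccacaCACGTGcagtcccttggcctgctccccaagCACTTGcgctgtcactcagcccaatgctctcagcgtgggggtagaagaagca
Myof chr19:38043528-38043827 (minus strand): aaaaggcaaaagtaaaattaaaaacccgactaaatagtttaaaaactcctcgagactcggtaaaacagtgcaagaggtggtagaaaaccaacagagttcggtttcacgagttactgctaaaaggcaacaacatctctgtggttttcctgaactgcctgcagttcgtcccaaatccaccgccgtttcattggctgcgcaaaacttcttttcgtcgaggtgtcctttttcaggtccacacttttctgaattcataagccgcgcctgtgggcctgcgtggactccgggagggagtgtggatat

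The Cdh15 window held 4 matches to CANNTG, starting at -236, -135, -32 and -2 bases from the start base, and the Myof window held 0. The Cdon window, which lies inside that gene, also held 0. Whether matches go with the response to PFI-3 was not tested. CANNTG is its own reverse complement, so both strands are covered, and 72.3% of 32851 promoter windows of this length held at least 1 match, with a median of 1. Neither window held the specific forms CAGCTG (16.3% of windows) or CACCTG (20.2% of windows), which are among the CANNTG letters. A match is a description of the letters in the window.

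In the same build Mymk spans 27061636 to 27072179 on chromosome 2 (minus strand), and Adam12, the longest of these genes, spans 133883199 to 134232146 on chromosome 7 (minus strand). Cdh15 spans 122847966 to 122867397 on chromosome 8 (plus strand) and Myof 37899036 to 38043577 on chromosome 19 (minus strand). Cdon (35421128 to 35507652, plus strand) and Jam3 (27097384 to 27155421, minus strand) both lie on chromosome 9.

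Mymk and Mymx were close to silent in proliferating cells and reached high levels at 48 h in both treatments. Mymk counts were 8 and 4 in GM DMSO and 6 and 14 in GM PFI-3, and Mymx was not listed in any of the 4 GM tables, taken here as a count of 0. In DMSO, Mymk stood at 295 and 303 FPKM at 24 h and at 1056 and 1014 FPKM at 48 h, where FPKM is a level corrected for gene length and sequencing depth. Mymx stood at 60.9 and 61.9 FPKM at 24 h and at 251 and 255 FPKM at 48 h. Against 3 counts per GM library, Mymx in DMSO was at least 197-fold higher at 24 h and at least 849-fold higher at 48 h. In PFI-3 the corresponding bounds were 88.3-fold and 342-fold.

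PFI-3 lowered both fusogens in differentiating cells. At 24 h, Mymk was 122 and 121 FPKM with PFI-3, and no PFI-3 library reached a DMSO library. The difference was 2.55-fold, a log2 fold change of -1.35 (SE 0.09, edgeR adjusted p = 1.67e-06). Mymx was 26.9 and 27.1 FPKM with PFI-3 at 24 h, again below both DMSO libraries, with a log2 fold change of -1.24 (SE 0.08, edgeR adjusted p = 5.08e-06). The pair therefore stood at 39.2% and 42.4% of their DMSO levels in CPM. CPM is the count scaled to library size with edgeR's TMM factors, and fold changes are on that scale unless limma is named.

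At 48 h the pair differed. Mymk was 714 and 773 FPKM with PFI-3, 67.5% of DMSO in CPM, a log2 fold change of -0.57 (SE 0.09, edgeR adjusted p = 0.000469). This Mymk difference was not called by limma on log2(FPKM + 0.1), with a log2 difference of -0.48 and an adjusted p of 0.276. Mymx was 101 and 104 FPKM with PFI-3, 38.1% of DMSO, a log2 fold change of -1.39 (SE 0.07, edgeR adjusted p = 8.36e-07). The PFI-3 effect on Mymk was smaller at 48 h than at 24 h, by 0.78 on the log2 scale (SE 0.12, edgeR adjusted p = 0.00151). For Mymx the change in effect between these times was -0.15 (SE 0.10, edgeR adjusted p = 0.39), which did not pass the test.

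The FPKM ratio of Mymk to Mymx restates these same values for each library. At 24 h the ratio was 4.85 and 4.9 in DMSO and 4.55 and 4.46 in PFI-3. At 48 h it was 4.2 and 3.98 in DMSO and 7.06 and 7.4 in PFI-3, so that the treated libraries at 48 h lay above the other differentiating libraries. The difference between the groups' ratios was not tested. PFI-3-treated cells at 48 h exceeded DMSO cells at 24 h for both genes, at 244% of their Mymk level and 164% of their Mymx level in CPM.

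**Figure D1:**
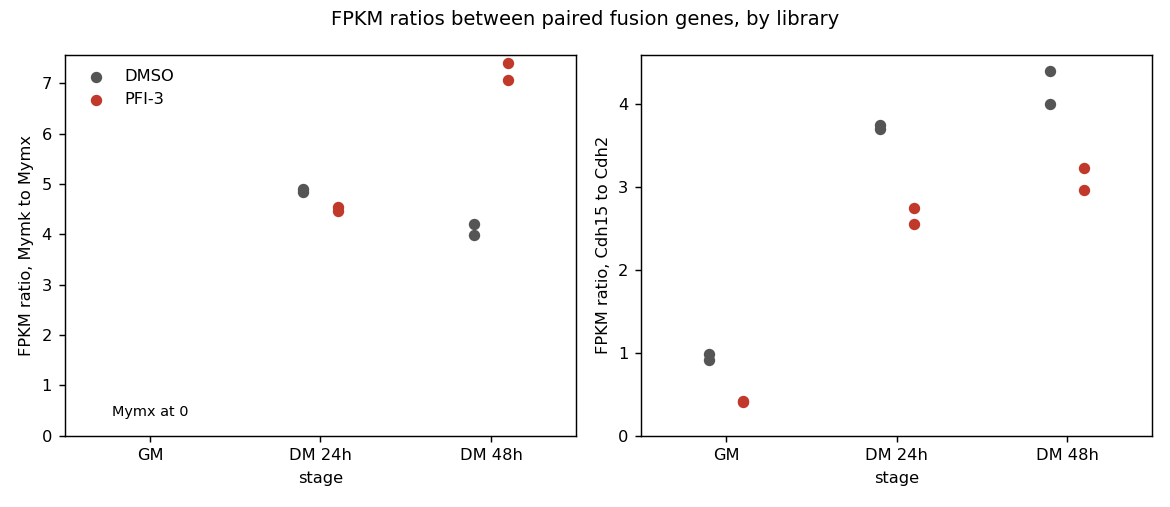
FPKM ratio of Mymk to Mymx (left) and of Cdh15 to Cdh2 (right) in each library, by stage (horizontal axis) and treatment (grey DMSO, red PFI-3); each point is 1 library. The Mymk to Mymx ratio is 7.06 and 7.4 with PFI-3 at 48 h and between 3.98 and 4.9 in the other differentiating libraries, and no ratio exists in GM, where Mymx was at 0.

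Cdh15 encodes M-cadherin, the cadherin typical of muscle cells, which holds apposed myoblasts together through homophilic contacts. It was the member with the largest PFI-3 difference in proliferating cells: 55.4 and 45.8 FPKM in DMSO against 22.7 and 18.7 FPKM in PFI-3, with no overlap between the groups. The log2 fold change was -1.39 (SE 0.11, edgeR adjusted p = 2.87e-05). At 24 h Cdh15 was 231 and 238 FPKM in DMSO and 133 and 127 FPKM in PFI-3, a log2 fold change of -0.90 (SE 0.11, edgeR adjusted p = 0.000105). At 48 h it was 201 and 202 FPKM in DMSO and 177 and 162 FPKM in PFI-3, a log2 fold change of -0.33 (SE 0.11, edgeR adjusted p = 0.0339).

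The 48 h call for Cdh15 was lost with limma on log2(FPKM + 1) (adjusted p = 0.0881) and on log2(FPKM + 0.1) (adjusted p = 0.0992), as well as in 8 of the 12 fits that left out 1 library, namely each differentiating library. The effect on Cdh15 was 1.06 log2 units smaller at 48 h than in GM (SE 0.16, edgeR adjusted p = 0.000897) and 0.57 smaller than at 24 h (SE 0.15, edgeR adjusted p = 0.0285). The second of these calls was lost without any 1 of the 8 differentiating libraries (adjusted p between 0.0554 and 0.122). In DMSO, Cdh15 rose 4.46-fold from GM to 24 h and then had a log2 fold change of -0.16 to 48 h (edgeR adjusted p = 0.234), which was called with only the 4 libraries compared (adjusted p = 0.000329). In PFI-3 it rose 6.26-fold to 24 h and a further 1.33-fold to 48 h (edgeR adjusted p = 0.0132). This last call was lost without library A (adjusted p = 0.0582) or B (0.102) of DM 24h PFI-3 or library A of DM 48h PFI-3 (0.115).

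Cdh2 encodes N-cadherin, a classical cadherin that myoblasts share with nerve and heart cells. Its level moved little over the whole course, between 45.5 and 64.3 FPKM in all 12 libraries. The log2 fold change with PFI-3 was -0.20 in GM (SE 0.09, edgeR adjusted p = 0.182), -0.41 at 24 h (SE 0.09, edgeR adjusted p = 0.00775) and 0.10 at 48 h (SE 0.09, edgeR adjusted p = 0.454). At 48 h the PFI-3 libraries, both at 54.7 FPKM, lay above the DMSO libraries at 50.1 and 45.8, and the difference was called only in the fit of these 4 libraries with the replicate letter as a block (adjusted p = 0.0341). At 24 h Cdh2 stood at 61.8 and 64.3 FPKM in DMSO and at 48.2 and 49.7 FPKM in PFI-3, without overlap. That call was lost without library A of DM 24h PFI-3 (log2 fold change -0.39, adjusted p = 0.0702) or library B of DM 24h DMSO (-0.38, adjusted p = 0.0736). The effects at 48 h and 24 h differed by 0.52 (SE 0.13, edgeR adjusted p = 0.0246), a call lost without any 1 of the 8 differentiating libraries (adjusted p between 0.0536 and 0.128).

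The balance of the 2 cadherins shifted with stage and with PFI-3. The FPKM ratio of Cdh15 to Cdh2 was 0.984 and 0.909 in GM DMSO and 0.42 and 0.411 in GM PFI-3. It was 3.75 and 3.7 against 2.75 and 2.55 at 24 h, and 4 and 4.4 against 3.23 and 2.96 at 48 h. The PFI-3 libraries were the lower ones at each of the 3 stages, and the difference in ratio was not tested.

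Cdon encodes a cell-surface receptor of the immunoglobulin and fibronectin type that associates with cadherins at myoblast contacts and signals toward differentiation. Cdon was 73 and 72.9 FPKM at 24 h in DMSO and 46.9 and 47.3 FPKM in PFI-3, with a log2 fold change of -0.68 (SE 0.09, edgeR adjusted p = 0.00027). At 48 h it was 53 and 51 FPKM against 45.3 and 43.5 FPKM, also without overlap, with a log2 fold change of -0.31 (SE 0.09, edgeR adjusted p = 0.0224). The 48 h call was lost without any 1 of the 4 libraries of that stage (adjusted p between 0.0717 and 0.142) and with limma (0.099 and 0.107). In GM the groups overlapped in FPKM, at 26.6 and 29.4 in DMSO and 23 and 29.1 in PFI-3. In CPM they did not, at 203 and 213 against 159 and 202. The GM log2 fold change was -0.20 (SE 0.09, edgeR adjusted p = 0.173) and ran from -0.39 to -0.04 over fits without 1 library. In DMSO, Cdon rose 2.51-fold from GM to 24 h and then fell 1.34-fold to 48 h (edgeR adjusted p = 0.00201). In PFI-3 it rose 1.81-fold to 24 h and had a log2 fold change of -0.06 to 48 h (edgeR adjusted p = 0.666).

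Jam3 encodes junctional adhesion molecule C, an immunoglobulin-type adhesion protein. It climbed at each step of the DMSO course, from 10.8 and 9.69 FPKM in GM to 27.2 and 25.5 FPKM at 24 h and 50.6 and 51.8 FPKM at 48 h. In PFI-3 it was 11.8 and 10.6 FPKM in GM, overlapping DMSO, then 20.9 and 19.4 FPKM at 24 h and 37.2 and 38 FPKM at 48 h, below both DMSO libraries at each of these times. The log2 fold change was -0.43 at 24 h (SE 0.09, edgeR adjusted p = 0.00421) and -0.53 at 48 h (SE 0.08, edgeR adjusted p = 0.00049). The 24 h call was lost without library B of DM 24h PFI-3 (log2 fold change -0.39, adjusted p = 0.0508). The effect at 48 h differed from that in GM by -0.56 (SE 0.13, edgeR adjusted p = 0.013), and this call was lost without library A of DM 48h PFI-3 (adjusted p = 0.0519) or library B of DM 48h DMSO (0.0536). Exons of Jam3 overlap those of Gm48796, annotated on the opposite strand, by up to 773 bases, and whether reads were assigned by strand is not given in the sources used here.

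Adam12 encodes meltrin alpha, a transmembrane metalloprotease with a disintegrin domain that takes part in myoblast adhesion and fusion. Its duplicates in GM lay far apart, at 16.4 and 9.92 FPKM in DMSO and 9.43 and 6.4 FPKM in PFI-3. The GM log2 fold change was -0.84 (SE 0.21, edgeR adjusted p = 0.0256). Within each replicate letter, the log2 CPM ratio of PFI-3 to DMSO was -0.94 for A and -0.69 for B. The GM call was kept in 6 of 9 other settings, among them only the 4 GM libraries with the replicate letter as a block. It was lost with only the 4 GM libraries and no block (adjusted p = 0.334) and with limma on either FPKM scale (adjusted p = 0.0587 and 0.0627). It was also lost without library A of GM DMSO (log2 fold change -0.39, adjusted p = 0.132) or library B of GM PFI-3 (-0.59, adjusted p = 0.11). At 24 h Adam12 was 9.4 and 9.79 FPKM in DMSO and 3.93 and 4.03 FPKM in PFI-3, a 2.49-fold difference (log2 fold change -1.32, SE 0.23, edgeR adjusted p = 0.00162). At 48 h it was 8.06 and 7.99 FPKM against 6.47 and 5.96 FPKM, with a log2 fold change of -0.46 that did not pass the test (SE 0.22, edgeR adjusted p = 0.151), although the libraries did not overlap. The same difference was called with only the 4 libraries of that stage in the fit (adjusted p = 1.33e-06) and without either GM DMSO library (adjusted p = 0.0154 and 0.0158).

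Myof encodes myoferlin, a calcium-binding ferlin of the plasma membrane. It was the member with the highest FPKM in proliferating cells, at 88.3 and 90.6 in DMSO and 90.8 and 95.8 in PFI-3. In CPM the GM groups overlapped, with a log2 fold change of -0.04 (SE 0.06, edgeR adjusted p = 0.698). In DMSO Myof fell at each step, to 75.4 and 76.5 FPKM at 24 h and 56.2 and 56 FPKM at 48 h. With PFI-3 it was 82.2 and 81.8 FPKM at 24 h, a log2 fold change of 0.06 (SE 0.06, edgeR adjusted p = 0.455), and 71.9 and 70.5 FPKM at 48 h. The 48 h difference was 0.26 on the log2 scale (SE 0.06, edgeR adjusted p = 0.00527), without overlap, and Myof was the member called higher with PFI-3 at that time. That effect was 0.30 above the one in GM (SE 0.08, edgeR adjusted p = 0.0285), a call lost in 9 of the 12 fits that left out 1 library (adjusted p between 0.0528 and 0.105).

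**Figure D2:**
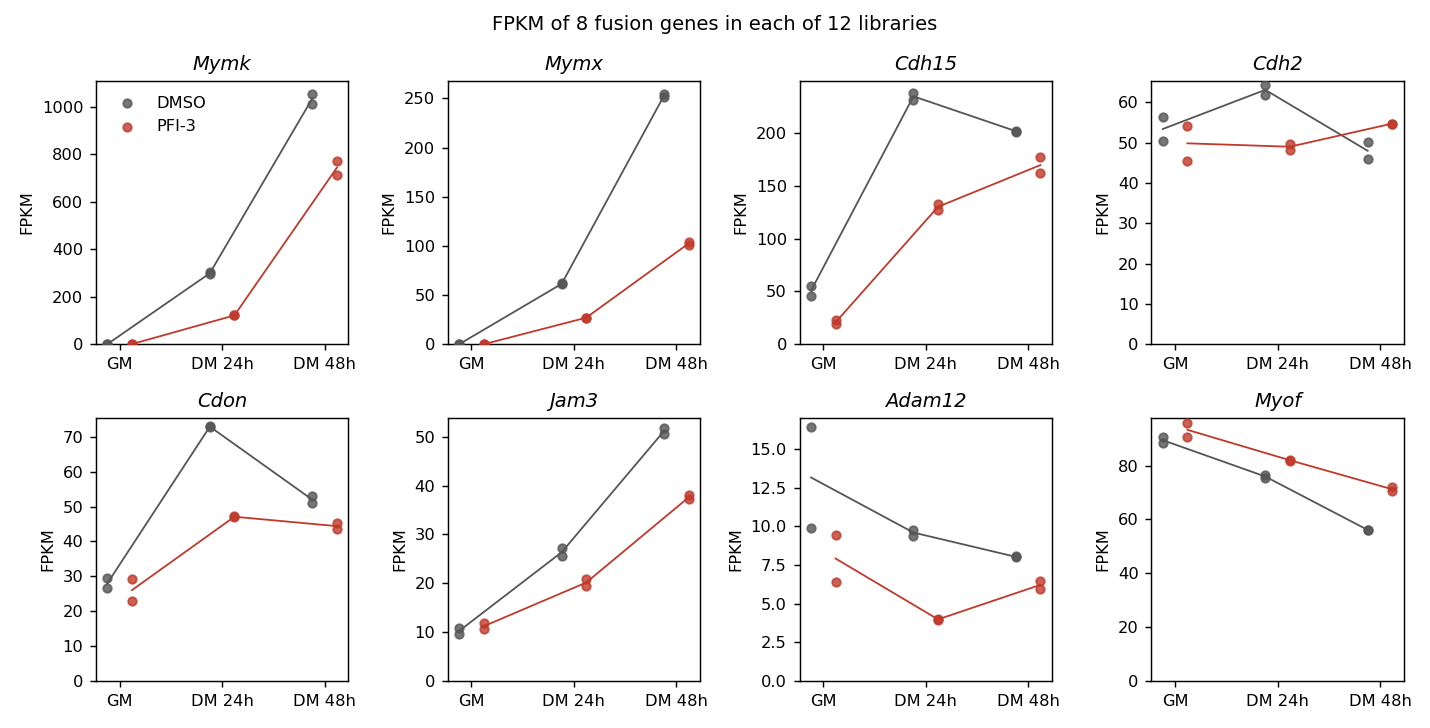
FPKM (vertical axes, each from 0) of the 8 measured fusion genes in each library, by stage (horizontal axis) and treatment (grey DMSO, red PFI-3); points are libraries and lines join the means of 2. At 24 h the PFI-3 points lie below the DMSO points for 7 genes and above them for Myof, at 82.2 and 81.8 against 75.4 and 76.5 FPKM.

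Counted together, PFI-3 lowered 2 of the 7 members with counts in GM (Cdh15 and Adam12), where 11.6% of all tested genes were called, 5.46% higher and 6.15% lower. At 24 h, 7 of 8 members were lower and Myof did not pass the test, where 23.6% of tested genes were called, 12.2% higher and 11.4% lower. At 48 h, 5 of 8 were lower (Mymk, Mymx, Cdh15, Cdon and Jam3) and Myof was higher, where 27.4% of tested genes were called, 13.4% higher and 14% lower. The members' median log2 fold change was -0.20 in GM, -0.79 at 24 h and -0.40 at 48 h, beside medians of -0.01, 0.00 and 0.00 over all tested genes. With limma on log2(FPKM + 0.1), 3 members were called at 48 h.

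**Figure D3:**
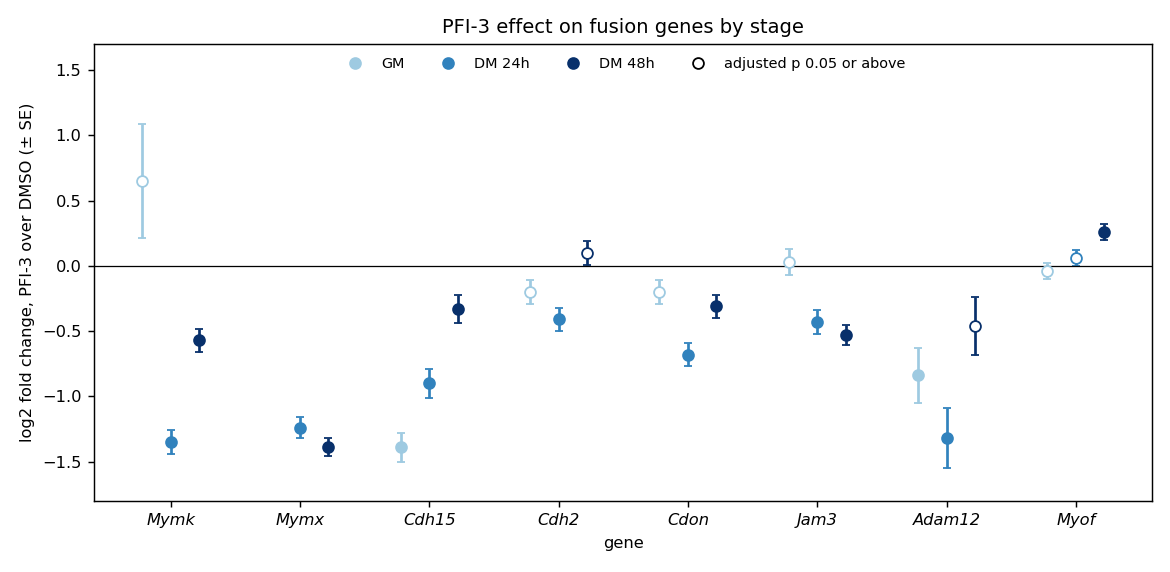
Log2 fold change of PFI-3 over DMSO (vertical axis, bars are SE from edgeR) for each of the 8 fusion genes, in GM, at 24 h and at 48 h (light to dark); open points have an adjusted p of 0.05 or above. Mymx at 48 h (-1.39) and Cdh15 in GM (-1.39) lie lowest, and Mymx has no point in GM, where it was at 0. The bars rest on 1 estimate of spread per gene for all groups and do not show the wider spread of duplicates in GM.

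In the DMSO course from GM to 24 h, 5 members rose (Mymk, Mymx, Cdh15, Cdon and Jam3) and Myof fell, where 60.6% of tested genes were called, 30.6% higher and 30% lower. Adam12 missed the threshold with a log2 fold change of -0.52 (SE 0.21, edgeR adjusted p = 0.0504). It was called in 5 of 9 other settings, with DESeq2 at an adjusted p of 0.0181, and with the replicate block at 0.0333. Its value was -0.06 without library A of GM DMSO and -0.86 without library B. From 24 h to 48 h, Mymk, Mymx and Jam3 rose and Cdh2, Cdon and Myof fell, where 48.1% of tested genes were called, 24.2% higher and 23.9% lower. In PFI-3, Mymk, Mymx, Cdh15, Cdon and Jam3 rose and Adam12 and Myof fell from GM to 24 h, where 60.3% of tested genes were called, 32.1% higher and 28.2% lower. In the same cells Mymk, Mymx, Cdh15 and Jam3 rose and Myof fell from 24 h to 48 h, where 27.3% were called, 13.1% higher and 14.2% lower. Adam12 narrowly missed the threshold there, with a log2 fold change of 0.67 (SE 0.23, edgeR adjusted p = 0.0507). It was called in 6 of 9 other settings. The Myof call in this last interval (log2 fold change -0.18, edgeR adjusted p = 0.0331) was lost with DESeq2-style size factors (0.0986), with DESeq2 (0.151) and without any 1 of the 8 differentiating libraries (up to 0.162). The Myof call from GM to 24 h in PFI-3 was lost without either DM 24h PFI-3 library or library B of GM PFI-3, and the Cdh2 call from 24 h to 48 h in DMSO was lost without library B of either group. These comparisons share libraries with the treatment comparisons.

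Exposure to PFI-3 was longer at each later stage, so stage and length of exposure cannot be told apart. The PFI-3 effect was called to differ between stages for Mymk, Cdh15, Cdh2, Myof and Jam3, in at least 1 of the 3 stage comparisons. From GM to 24 h it differed for 1 of 7, Mymk, toward lower values, from GM counts of at most 14, where 3.37% of tested genes were called, 1.78% higher and 1.59% lower. From 24 h to 48 h it shifted upward for 3 of 8 (Mymk, Cdh15 and Cdh2), where 12.1% were called, 7.12% higher and 4.97% lower. From GM to 48 h it shifted upward for Cdh15 and Myof and downward for Jam3, 3 of 7, where 14.5% were called, 8.25% higher and 6.29% lower.

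On the length-scaled FPKM scale, the order of the mean levels changed with stage. In GM DMSO, Myof came first at 89.5 ± 1.64 (SD, n = 2), followed by Cdh2 at 53.3 ± 4.16 and Cdh15 at 50.6 ± 6.76, whose libraries overlapped. Cdon followed at 28 ± 2.02, then Adam12 at 13.2 ± 4.59 and Jam3 at 10.2 ± 0.792, which overlapped, and Mymk at 0.36 ± 0.198. At 48 h in DMSO the order ran from Mymk at 1035 ± 29.5 through Mymx at 253 ± 2.52 and Cdh15 at 201 ± 0.707 to Adam12 at 8.03 ± 0.0495. With PFI-3 at 48 h, Cdh15 at 169 ± 10.5 stood above Mymx at 103 ± 2.38. At 24 h with PFI-3, Cdh15 at 130 ± 4.41 likewise stood above Mymk at 121 ± 1.25, the reverse of DMSO, where Mymk was 299 ± 5.84 and Cdh15 was 235 ± 4.58.

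Markers of myoblasts, of differentiation and of the cell cycle moved alongside these genes. Of the 5 myoblast markers, which include Cdh15, 3 were called lower with PFI-3 in GM (median log2 fold change -0.47), where their summed FPKM was 333 to 366 in DMSO and 221 to 278 in PFI-3. At 24 h and at 48 h, 2 of 5 were called lower. The 6 differentiated-muscle markers (Myog, Myh3, Ckm, Acta1, Tnnt3 and Actc1) were all lower with PFI-3 at 24 h and at 48 h: their summed FPKM was 1848 to 1860 in DMSO and 759 to 762 in PFI-3 at 24 h, and 11962 to 11979 against 8002 to 8056 at 48 h. The 5 proliferation markers (Mki67, Top2a, Ccnb1, Cdk1 and Ccna2) summed to 113 to 114 FPKM in DMSO and 228 to 230 in PFI-3 at 48 h, where all 5 were called higher, while 3 of 5 were called lower at 24 h. Of the fibroblast list, 1 of 2 tested genes was called higher with PFI-3 at 24 h and at 48 h, and the list summed to 8.91 to 8.95 FPKM against 11.2 to 12.2 and to 9.6 to 9.65 against 14.2 to 16.4. The part of these markers in the fusion-gene differences was not tested. In these bulk cultures, fewer differentiating cells and less fusion-gene RNA per cell cannot be told apart.

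Likeness of pattern was measured as Pearson's r of log2 CPM over the 12 libraries among 9389 genes, a description in which the libraries share stage and treatment. The genes most like Mymk included Actc1 and Svil (r = 0.998 each), and Mymx was most like Iffo1 (0.998), Actc1 and Arpp21 (0.997 each). Jam3 was most like Mybpc1 (0.996), Frmd4b (0.995) and Mb (0.994), and Cdh15 was most like Stard13 (0.989), Mical1 (0.984) and Mnat1 (0.978). Cdon was most like Slc31a1 (0.981), Scd2 (0.977) and St8sia2 (0.974), and Myof was most like Acsl5 (0.995), Aaas and Fen1 (0.994 each). Patterns like those of Adam12 and Cdh2 were rarer: 3 genes reached r = 0.95 with Adam12 (Diexf, Fam98a and Sh3bp2) and 0 did with Cdh2, against 577 with Mymk and 638 with Mymx. Between members, Mymk and Mymx were closest (r = 1.00), and Jam3 ran with Mymx (0.95) and Mymk (0.94). Cdh15 ran with Mymx (0.93), Cdon (0.92) and Mymk (0.91), while Jam3 and Myof ran opposite (r = -0.98).

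The wider fusion machinery was read from a list of 64 other genes, of which 60 were tested, grouped by role. PFI-3 raised 3 and lowered 8 in GM, raised 8 and lowered 10 at 24 h, and raised 8 and lowered 11 at 48 h, with median log2 fold changes of -0.09, -0.03 and -0.03. Over all tested genes, 11.6%, 23.6% and 27.4% were called at these stages, and the counts of the list are to be read against those shares. With only the 4 GM libraries in the edgeR fit, 0 of 55 genes of the list were called in GM (6 at an unadjusted p under 0.05). With the replicate block added to that fit, 5 were called. Over all genes these fits called 32 and 741. The list had 13 calls in GM with DESeq2 and 6 or 7 with limma. The 18 calls at 24 h became 38 with only the libraries compared, 11 with limma on log2(FPKM + 0.1) and 7 to 29 without 1 library. The 19 calls at 48 h became 29 with only the libraries compared and 33 with the block added. With only the libraries compared, calls over all genes went from 2966 to 5583 at 24 h and from 3438 to 5688 at 48 h.

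Among adhesion genes, Ncam1, a neural cell adhesion molecule also present on myoblasts, was 84.8 and 89.5 FPKM in DMSO and 52.5 and 53.4 FPKM in PFI-3 at 24 h (log2 fold change -0.74, SE 0.11, edgeR adjusted p = 0.000546). Vcam1, an immunoglobulin-type ligand of integrins, was lower in GM, at 29.4 and 36.5 FPKM in DMSO and 21.6 and 23.5 FPKM in PFI-3 (log2 fold change -0.65, edgeR adjusted p = 0.000617). Cdh11, a further cadherin, was also called lower in GM, at 17.2 and 13.7 FPKM against 13.6 and 10.2 FPKM, a call that limma and 10 of the 12 fits without 1 library did not make. The integrin subunit Itga3 was higher at 48 h, at 25 and 23.2 FPKM with PFI-3 against 15.7 and 13.4 FPKM. Itga4 was called lower there from counts of only 42 and 25 against 16 and 15, and the call was lost with DESeq2, without the low-count filter and without any 1 of the 8 differentiating libraries, at -0.75 without library A of DM 48h DMSO.

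Of the other ADAM metalloproteases, Adam15 differed from Adam12 in direction. Adam12 was not called at 48 h, and its GM call was not kept in every setting. Adam15 was higher with PFI-3 in GM (log2 fold change 0.54), at 24 h (0.70) and at 48 h (0.70), with edgeR adjusted p-values of 0.00439, 0.000306 and 0.000233. Its GM call was lost with only the GM libraries in the fit (edgeR adjusted p = 0.179). Its FPKM was 17.9 and 15.6 in DMSO and 30.4 and 27.8 in PFI-3 at 48 h. Adam19, named after its values were seen, was lower at 24 h (log2 fold change -0.61) and at 48 h (-0.81).

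Among ferlins and membrane-traffic genes, Dysf, the repair ferlin dysferlin, and Cav3, the muscle caveolin, were lower with PFI-3 at both differentiation times, and Myof was not. Dysf was 3.51 and 3.49 FPKM in DMSO against 2.36 and 2.66 in PFI-3 at 24 h, and 23.8 and 23.3 against 17.2 and 15.2 at 48 h. Cav3 was 6.6 and 6.41 FPKM against 1.73 and 3.24 at 24 h (log2 fold change -1.44, SE 0.22, edgeR adjusted p = 0.001), and 68 and 73 against 39.3 and 41.9 at 48 h. In the DMSO course Dysf rose by 2.80 and Cav3 by 3.50 on the log2 scale from 24 h to 48 h. Ehd1, a membrane-recycling ATPase, fell by 1.19 from GM to 24 h and rose by 0.32 from 24 h to 48 h (edgeR adjusted p = 0.00371).

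Genes acting on Rac, actin and membrane curvature split in direction. Elmo1, which activates Rac together with Dock proteins, had counts of 17 and 7 in DMSO and 51 and 60 in PFI-3 at 24 h (log2 fold change 2.16, SE 0.44, edgeR adjusted p = 0.00527), a call lost without library B of DM 24h DMSO. Arhgap26, a protein that binds curved membranes, was higher with PFI-3 at each of the 3 stages from low counts, 20 and 16 against 45 and 57 at 24 h (log2 fold change 1.46, SE 0.27, edgeR adjusted p = 0.00271). Its GM call was lost with DESeq2, with only the GM libraries, and without library A of GM DMSO or B of GM PFI-3. Its 48 h call was lost with DESeq2 and without any 1 of the 4 libraries of that stage. Snx18, a sorting nexin, was higher in GM (log2 fold change 0.40), and Wasf2, a WAVE-complex activator of actin branching, was lower in GM, at 24 h and at 48 h (-0.36, -0.42 and -0.44), although the GM difference was not called by limma, with only the GM libraries or in 5 of the 12 fits without 1 library, and was -0.20 without library B of GM DMSO.

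Nfatc2, a calcium-regulated transcription factor that controls the growth of myotubes by fusion, had counts of 146 and 138 in DMSO and 31 and 29 in PFI-3 at 48 h (log2 fold change -2.30, SE 0.26, edgeR adjusted p = 5.29e-05). Its call at 24 h, from counts of 16 and 26 against 9 and 8, was lost with DESeq2, with limma and in 7 of the 12 fits without 1 library, at -0.96 without library B of DM 24h DMSO. In the DMSO course, Ptgfrn, an immunoglobulin-type partner of tetraspanins, rose by 1.86 from GM to 24 h while the interleukin receptor Il4ra fell by 1.05 and the Rac activator Dock5 by 0.99. From 24 h to 48 h, Nfatc2 rose by 2.81, while Kirrel3 and Kirrel, relatives of the fly fusion receptors, fell by 1.51 and 0.91 and Itga3 fell by 0.95. Elmo1 and Cav3 were called higher at 24 h against GM DMSO counts of 0 and 0 and of 1 and 2, so no fold is given for them.

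**Figure D4:**
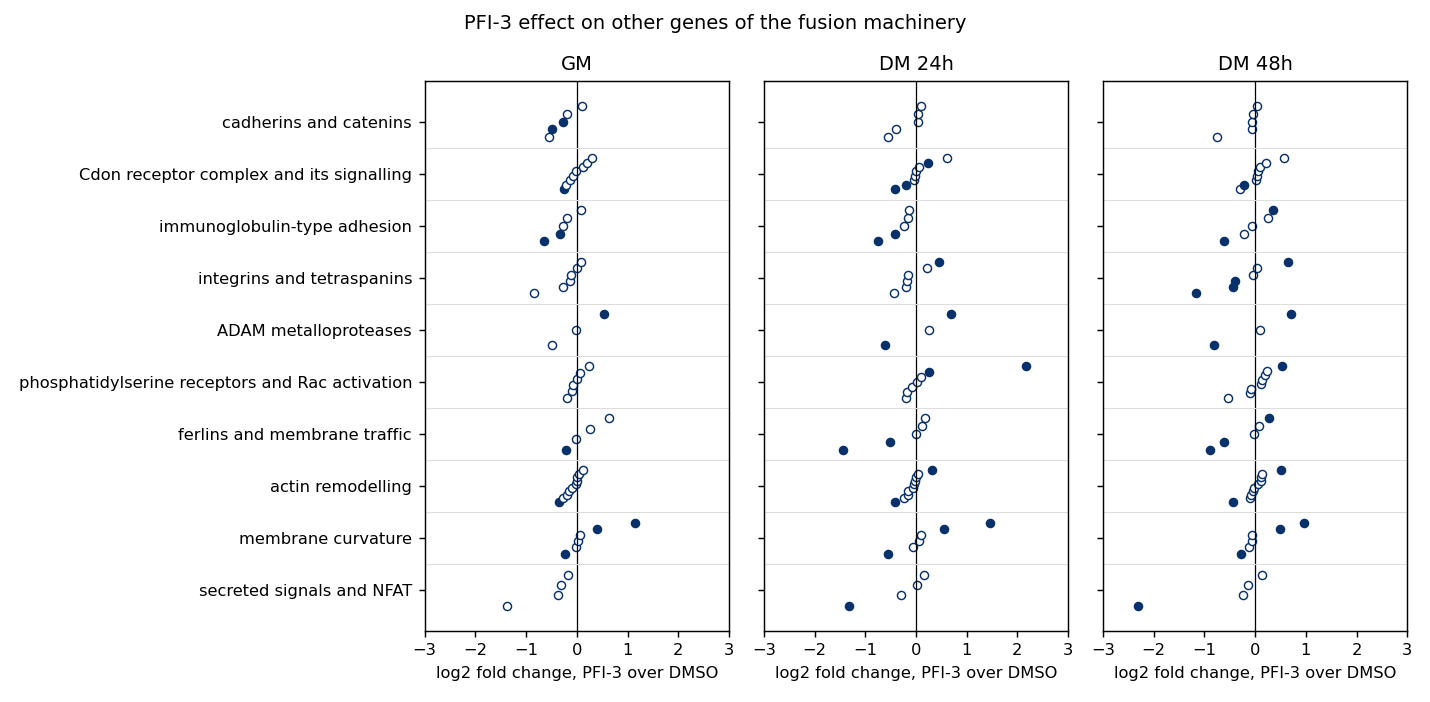
Log2 fold change of PFI-3 over DMSO (horizontal axis) for the tested genes of the wider fusion list, 1 point a gene, by role (vertical axis) and stage (panels); filled points have an edgeR adjusted p under 0.05. Stab2, Elmo1 and Cav3 are left out in GM and Stab2 at 24 h, where a group averaged 3 counts or fewer, and Nfatc2 at 48 h (-2.30) lies farthest to the left.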

How the data were processed

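RNA from 12 C2C12 libraries was profiled in 1 deposited table each, with expected counts and FPKM values per gene, per the file headers; duplicates were not pooled. Build mm10 and the tools HISAT, StringTie, Cufflinks, Bowtie, RSEM and DESeq2 are named without roles in the submitters' processing notes. A gene missing from a table was taken as 0, since in 6963 cases of a gene listed in only 1 of the 2 duplicates of a group, 97% had at most 5 counts. Groups came from sample titles. Expected counts (the authors' estimates) were rounded and tested with edgeR 4.0.16 (quasi-likelihood, TMM, all 12 libraries in 1 model with 6 groups) on the 12545 genes kept by its low-count filter. Benjamini-Hochberg adjustment ran over all of them, and a gene was called under 0.05. The script was tested on simulated data. SEs come from the same test, which uses 1 estimate of spread per gene for all 6 groups. They therefore do not show that duplicates lay farther apart in GM. The FPKM values the authors deposited served for levels, ratios and limma 3.58.1. DESeq2 1.42.0, other scalings and filters, a replicate block, smaller fits and leaving out each library were alternatives.

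Floors of 3 counts cover counting error only. Sequences come from RefSeq and GENCODE M21. The members and lists were chosen with earlier results of these data known. All members are named, and in each comparison the 3 other fusion genes with the largest called change in each direction, among those with a mean of at least 1 CPM. Adam19, Dysf under PFI-3 and Wasf2 during differentiation were named after their values were seen. One gene with a pattern like that of Mymk is not reported here. The letters A and B are not stated to pair cultures.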

Additional observations from a re-analysis of the deposited data

Results flagged for a closer look

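The following results were picked out because the PFI-3 effect on a gene differed between stages by a test of that difference in edgeR. Length of exposure to PFI-3 differed between the stages as well.

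For Mymk the effect at 24 h lay below that in GM by -2.00 on the log2 scale (SE 0.45, edgeR adjusted p = 0.0352). This value rests on GM counts between 4 and 14, and the call was lost in 10 of the 12 fits that left out 1 library (adjusted p between 0.057 and 0.326). Without library B of GM PFI-3 the difference was -1.29. The Mymk effect at 48 h lay above that at 24 h by 0.78 (edgeR adjusted p = 0.00151), with 1 of 9 other settings not calling it.

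For Cdh15 the effect at 48 h lay above that in GM by 1.06 (edgeR adjusted p = 0.000897), called under all 9 other settings, and above that at 24 h by 0.57 (edgeR adjusted p = 0.0285). For Cdh2 the effect at 48 h lay above that at 24 h by 0.52 (edgeR adjusted p = 0.0246). For Myof and Jam3 the effects at 48 h differed from those in GM by 0.30 (edgeR adjusted p = 0.0285) and -0.56 (edgeR adjusted p = 0.013). The Cdh15 call against 24 h and the Cdh2, Myof and Jam3 calls were lost in some fits without 1 library, as given above. Over fits without 1 library these values ran from 0.50 to 0.63, 0.45 to 0.58, 0.26 to 0.34 and -0.68 to -0.44, in that order.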

How the results depend on the processing

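The count of members called with PFI-3 in GM was 2, and 1 with only the 4 GM libraries and with limma on either FPKM scale (1 to 3 over fits without 1 library). At 24 h it was 7 (6 to 7 without 1 library). At 48 h it was 6, and 3 with limma on log2(FPKM + 0.1) (4 to 7 without 1 library). From 24 h to 48 h in PFI-3 it was 5 (3 to 6 without 1 library). For the change in effect from GM to 24 h the count was 1, 0 with only the libraries compared in edgeR (with and without the replicate block, 4 at an unadjusted p under 0.05) and 2 with DESeq2 and with limma on log2(FPKM + 1) (0 to 3 without 1 library). From 24 h to 48 h it was 3, and 6 with only the libraries compared, with and without the block (1 to 5 without 1 library). From GM to 48 h it was 3 (1 to 5 without 1 library). The cause of these differences was not tested.

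Values that changed sign were uncalled under each setting that turned them. Over fits without 1 library, the PFI-3 log2 fold change in GM ran from -0.06 to 1.26 for Mymk, from -0.08 to 0.00 for Myof and from -0.09 to 0.15 for Jam3. Cdh2 from GM to 24 h in PFI-3 ran from -0.14 to 0.10, and the change in effect from GM to 48 h ran from -0.07 to 0.74 for Adam12 and from -0.27 to 0.07 for Cdon. The turns came without 1 of the GM libraries. Myof in GM was 0.06 with limma on both scales, and Jam3 in GM was -0.05 without library A of GM PFI-3.

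The letters A and B correlated with 0.488 between GM groups and between -0.0455 and 0.037 in the other comparisons (deviations from group means, 10656 genes). With the replicate block in the model of all libraries, members called numbered 2, 7 and 6 with PFI-3 in GM, at 24 h and at 48 h. With the block and only the libraries compared they numbered 2, 7 and 8.

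Over all genes, 1456, 2966 and 3438 were called with PFI-3 in GM, at 24 h and at 48 h. With only the libraries compared, 32, 5583 and 5688 were called, and 741, 5719 and 6034 with the block added. For PFI-3 from 24 h to 48 h, 3429 became 5674 (6069 with the block). For the changes in effect, 423, 1517 and 1824 became 79, 4154 and 1037 (101, 4181 and 1093 with the block), in the order 24 h against GM, 48 h against 24 h and 48 h against GM. Among called genes, 47% were higher with PFI-3 in GM and 48.9% at 48 h, against 74.4% and 68.1% with limma on log2(FPKM + 1), whose median over all genes was 0.07 and 0.08. The 2 libraries of each group limit every comparison, and Mymx could not be tested in GM, where its count was 0.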
